A study of Mus musculus with 4 samples.

Results

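Dual-specificity phosphatases (DUSPs) of the MAP kinase family were examined in natural killer (NK) cells of mouse spleen. The 8 genes Dusp1, Dusp2, Dusp4, Dusp5, Dusp6, Dusp7, Dusp10 and Dusp16 were taken by name from a table of 35275 genes, and each was present once. Bulk RNA sequencing had been carried out on 4 libraries of NK cells enriched with a kit and sorted as CD3-negative, NK1.1-positive cells, 1 library for each combination of genotype label and treatment. The genotype labels were wild type (WT) C57BL/6 and Irf4-/-, a knockout of the lymphocyte transcription factor IRF4. Injected mice had been given B16-F10, a melanoma line of mouse origin, intravenously 20 days before collection of the spleen, whereas control mice had been given no tumour cells. The labels give neither the deleted part of Irf4 nor the number, age or sex of the animals behind a library. No group had a replicate, so a ratio of 2 libraries compares those libraries and carries no p-value.

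MAP kinases, which comprise the ERK, JNK and p38 enzymes, are switched on by phosphorylation of a threonine and a tyrosine in the activation loop. DUSPs remove both phosphates and so switch the kinase off. Most are transcribed in response to the signal that they end, which makes their transcripts a common readout of recent signalling in lymphocytes. Dusp1, Dusp2, Dusp4 and Dusp5 encode inducible nuclear enzymes, Dusp6 and Dusp7 encode cytoplasmic enzymes that prefer ERK, and Dusp10 and Dusp16 encode enzymes that prefer JNK and p38.

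Libraries held between 15878159 and 21104881 counts, of which the 8 phosphatase genes took 0.0649% and 0.0905% in control and injected WT mice and 0.0674% and 0.0562% in the corresponding libraries labelled Irf4-/-. Irf4 itself had 93 and 57 counts in WT control and WT injected and 188 and 236 in the libraries labelled Irf4-/- control and injected. The count of the targeted gene was thus higher under the knockout label, and every genotype direction depends on those labels. All 10 NK cell markers examined were expressed, with summed levels of 14549 to 16279 CPM (counts scaled to library size), and the 7 T cell markers summed to 41.4 to 50.1 CPM. Summed B cell markers were 33.1 and 12.4 CPM in control and injected WT mice and 37.1 and 22.0 CPM in the corresponding libraries labelled Irf4-/-. All 6 B cell markers had a negative injection change, and 1 was called lower, against 0.392% of all genes tested. Summed monocyte and macrophage markers were 36.2 and 79.3 CPM in WT control and injected and 55.9 and 65.5 CPM under the Irf4-/- label. Summed erythroid markers were 37.6 and 18.1 CPM in WT and 44.1 and 109 CPM under the Irf4-/- label, lowest in WT injected and highest in the library labelled Irf4-/- injected, with 0 of 5 tested called in either effect. Summed dendritic cell markers were 9.85 to 16.2 CPM. Of 5 neutrophil markers Ly6g and Retnlg were at 0 in every library. WT injected lay farthest from the rest over all genes, at a root mean square log2 difference of 0.460 to 0.506, against 0.342 to 0.446 among the other libraries, and held 5.97% of counts in ribosomal protein genes against 4.32% to 4.82%.

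Levels of the 8 genes were compared with each other on the deposited FPKM scale, which divides by gene length. Dusp2 was the most abundant, at 196 and 293 FPKM in control and injected WT mice and 224 and 152 FPKM in the corresponding libraries labelled Irf4-/-. Its mean lay above that of 97.8% of the genes tested. Dusp5 followed at 65.2 to 97.1 FPKM, and Dusp7 at 21.1 to 27.0. Dusp1, at 6.12 to 16.9 FPKM, and Dusp6, at 8.93 to 15.1, overlapped, so that their order is not set beyond the spread of the libraries. Dusp10 lay lower at 4.85 to 7.05 FPKM, Dusp16 at 0.913 to 1.26 and Dusp4 at 0.0587 to 0.184. The ranges of the other neighbours by mean did not overlap, although the lowest Dusp1 value lay inside the range of Dusp10. On the CPM scale, which does not divide by length, Dusp2 and Dusp5 together supplied most of the counts of the 8 genes. Dusp2 alone made up 43.6% to 53.6% of that sum, a share of reads and not of transcripts.

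**Figure D1:**
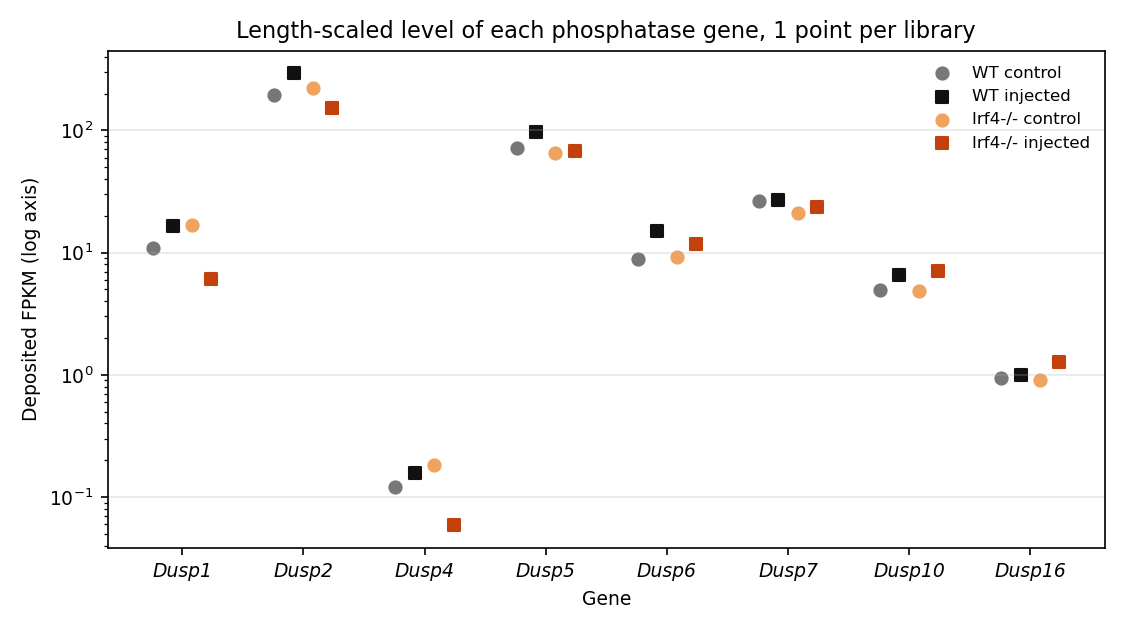
Deposited FPKM (log axis) of the 8 phosphatase genes, 1 point per library, with circles for control and squares for injected mice and grey or black for WT and orange tones for libraries labelled Irf4-/-. Dusp2 lies above 150 in every library, Dusp4 lies below 0.2, and in Dusp1 the library labelled Irf4-/- injected stands lowest at 6.12.

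Whether the genotype label or the injection shifted these genes was tested with both as additive terms over the 4 libraries. Of the 8 genes 7 entered the test, since Dusp4 did not reach 1 CPM in 2 libraries. None passed at an adjusted p of 0.05 in either effect by edgeR's quasi-likelihood test, where 1.22% of the 11998 genes tested rose and 0.258% fell with the genotype label and 0.333% rose and 0.392% fell with injection. DESeq2 and limma-voom also called 0 of the 7. At an unadjusted p under 0.05, Dusp5 and Dusp7 were lower with the genotype label, against 4.38% of all genes, with 0 members higher against 6.03%, and Dusp5, Dusp6 and Dusp10 were higher with injection, against 7.33%, with 0 lower against 6.84%. The median log2 change of the 7 genes tested was -0.26 for genotype and 0.25 for injection, beside -0.00121 and 0.00311 over all genes tested. In bulk RNA, fewer cells of a type and less RNA per cell cannot be told apart. The model has 1 residual degree of freedom and counts any difference in response between genotypes as error. With 1 term alone over all 4 libraries the count was also 0 in either effect. With 1 library then left out as well, it was 3 in 2 of 8 fits (Dusp2, Dusp5 and Dusp6) and 0 in the others. Those 2 fits, genotype without WT control and injection without the library labelled Irf4-/- injected, both set WT injected alone against a pair of libraries, so they show that library apart from the rest and do not separate genotype from injection. The lone library is assumed there to vary like the others.

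**Figure D2:**
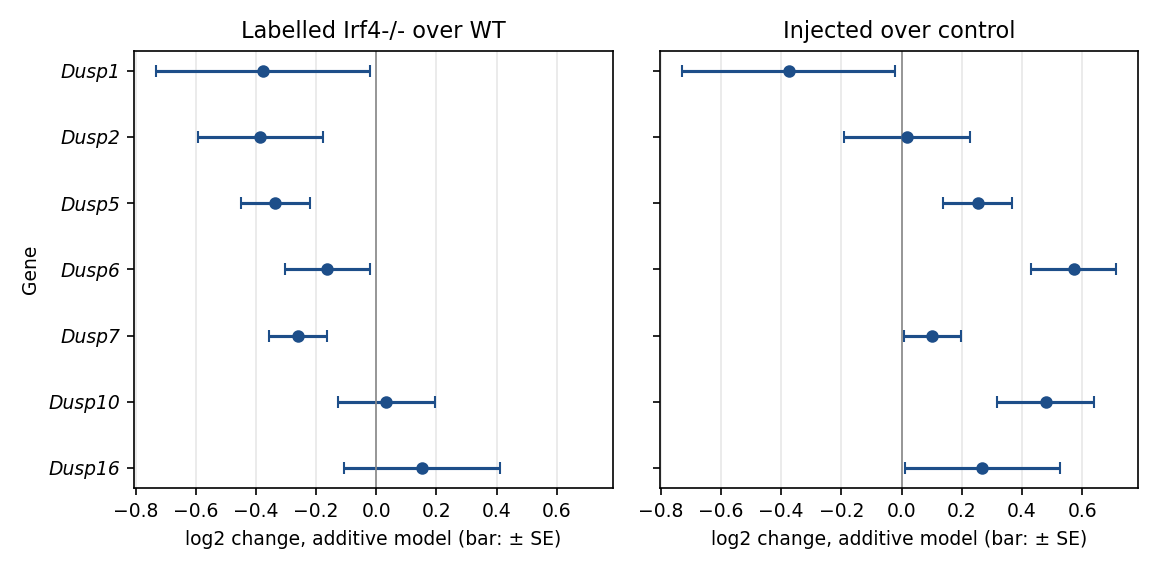
Log2 change of the 7 phosphatase genes tested, with the genotype label (left) and with injection (right), from the additive model over 4 libraries (point: estimate; bar: standard error). Dusp6 has the largest injection estimate of the 7 at 0.57, and Dusp1 the widest bars, with a standard error of 0.355 on the genotype side.

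Dusp1 (ENSMUSG00000024190, chromosome 17, 26505590 to 26562128 in GRCm38, minus strand) encodes an immediate early nuclear phosphatase that acts on p38, JNK and ERK. The promoters of Dusp1 and of Dusp2, described next, are shown because these transcripts had injection ratios of opposite sign under the 2 genotype labels. Each sequence is the sense strand of the gene from 250 to 41 bases before the RefSeq start in GRCm38.p6 (chr17:26508513-26508722, minus strand, for Dusp1 and chr2:127335909-127336118, plus strand, for Dusp2), with capitals marking matches to the motifs searched.
Dusp1: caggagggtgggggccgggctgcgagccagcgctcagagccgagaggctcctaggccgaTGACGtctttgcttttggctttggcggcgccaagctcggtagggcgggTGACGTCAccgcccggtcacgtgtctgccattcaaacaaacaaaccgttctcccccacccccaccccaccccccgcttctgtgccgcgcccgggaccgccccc
Dusp2: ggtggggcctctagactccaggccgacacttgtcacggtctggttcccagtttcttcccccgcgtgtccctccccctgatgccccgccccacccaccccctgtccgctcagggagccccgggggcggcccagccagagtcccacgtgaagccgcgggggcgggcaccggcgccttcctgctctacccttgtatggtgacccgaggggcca
Capitals in Dusp1 mark a full cyclic AMP response element, TGACGTCA, 143 to 136 bases before the start, and its core TGACG once more 191 to 187 bases before it. The full element was held by 1.79% and the core by 20.8% of the 32851 promoters of the same length, searched on both strands, and every full element holds the core. The Dusp2 stretch has no capitals, and its single TGACG match lay 5 to 9 bases after the start. A match describes letters and is not evidence of binding. The annotated Dusp1 gene extends upstream of this RefSeq start, and its far end overlaps Ergic1 on the opposite strand (384 to 688 counts). Overlaps here and below are of whole gene spans, introns included, and whether exons are shared was not examined. Reads of any shared exon cannot be told apart without a stated strand setting.

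Dusp1 had 25.3 and 38.6 CPM in control and injected WT mice and 38.6 and 14.2 CPM in the corresponding libraries labelled Irf4-/-. The library labelled Irf4-/- injected was the lowest, and neither the genotype labels nor the treatments separated the libraries. On injection the log2 ratio was 0.61 (95% counting interval 0.45 to 0.78) in WT and -1.44 (-1.66 to -1.24) under the Irf4-/- label. These intervals cover counting error only and treat reads as independent molecules, which PCR copies are not. Between genotypes the ratio was 0.61 (0.44 to 0.78) in control mice and -1.44 (-1.65 to -1.24) in injected mice. The injection ratio under the Irf4-/- label minus that in WT was -2.05 (-2.31 to -1.79), which ranked as the 5th lowest of 9523 genes whose mean reached 5 CPM in both pairs. This difference has no test, since it would use the only residual degree of freedom. In the additive model Dusp1 stood at -0.38 for genotype (SE 0.355) and -0.38 for injection (SE 0.355), with edgeR adjusted p of 0.829 and 0.676.

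Dusp2 (ENSMUSG00000027368, chromosome 2, 127336159 to 127338376, plus strand) encodes a nuclear phosphatase of haematopoietic cells. It had 319 and 475 CPM in control and injected WT mice and 359 and 245 CPM in the corresponding libraries labelled Irf4-/-. WT injected was the highest library and the one labelled Irf4-/- injected the lowest, as with the length-scaled values. The injection ratio was 0.58 (0.53 to 0.62) in WT and -0.55 (-0.60 to -0.49) under the Irf4-/- label, a difference of -1.12 (-1.20 to -1.05), which ranked 53 from the lowest among the 9523 genes. The genotype ratio was 0.17 (0.12 to 0.22) in control mice and -0.95 (-1.01 to -0.90) in injected mice. In the additive model the genotype change was -0.38 (SE 0.209, edgeR adjusted p 0.599) and the injection change 0.02 (SE 0.209, edgeR adjusted p 0.979). With no filter on low counts the genotype change passed, at an edgeR adjusted p of 0.0301.

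Dusp1 and Dusp2 were the members, among the 6 with at least 5 CPM in both injection pairs, whose counting interval lay above 0 on injection in WT and below 0 under the Irf4-/- label. Over all genes 2.69% showed that pattern and 4.03% the converse. The erythroid markers had median injection ratios of the opposite signs, -1.02 in WT and 1.29 under the Irf4-/- label, and their part in the Dusp1 and Dusp2 values was not tested. An injection ratio at least 1 log2 unit lower under the Irf4-/- label than in WT was held by 0.725% of genes and by Dusp1 and Dusp2, and one at least 1 unit higher by 0.347% and by 0 members. Dusp4 (ENSMUSG00000031530, chromosome 8, 34807297 to 34819894, plus strand), whose product is a nuclear phosphatase close in function to that of Dusp1, had 7 and 8 counts in control and injected WT mice and 8 and 3 counts in the corresponding libraries labelled Irf4-/-. Its injection ratios of 0.29 (-1.29 to 2.07) and -1.18 (-4.18 to 0.43) both include 0, so a change was not detectable at this depth. By the 2-fold rule (a mean of at least 5 CPM, a ratio of at least 2 and an interval that excludes 1) Dusp1 was the member called lower in the injected genotype pair, where 0.661% of genes were lower and 1.14% higher, and in the injection pair labelled Irf4-/-, where 0.217% were lower and 0.134% higher. The rule called 0 members in the control genotype pair, with 0.694% of genes higher and 0.104% lower, and 0 in the WT injection pair, with 1.06% higher and 0.830% lower. The pairs that share a library are not separate observations.

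Many genes had counting intervals that exclude 0, so the members' counts are read against those shares. In the genotype pair of control mice 2 of 6 members lay above 0 (Dusp1, Dusp2; 15.1% of genes) and 2 below (Dusp5, Dusp7; 22.4%), and in that of injected mice 0 of 7 lay above (27.8%) and 5 below (Dusp1, Dusp2, Dusp5, Dusp6, Dusp7; 27.1%). In the WT injection pair 5 of 6 lay above 0 (Dusp1, Dusp2, Dusp5, Dusp6, Dusp10; 28.7%) and 0 below (32.6%). In the injection pair labelled Irf4-/- 4 of 7 lay above (Dusp6, Dusp7, Dusp10, Dusp16; 22.1%) and 2 below (Dusp1, Dusp2; 18.9%). Both injection pairs lay above 0 for Dusp6 and Dusp10, as for 10.8% of genes, and below 0 for 0 members against 11.2%. WT injected was the highest library for Dusp2, Dusp5, Dusp6 and Dusp7, as for 33.2% of genes, and the lowest for 0 of 7, against 33.7%.

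**Figure D3:**
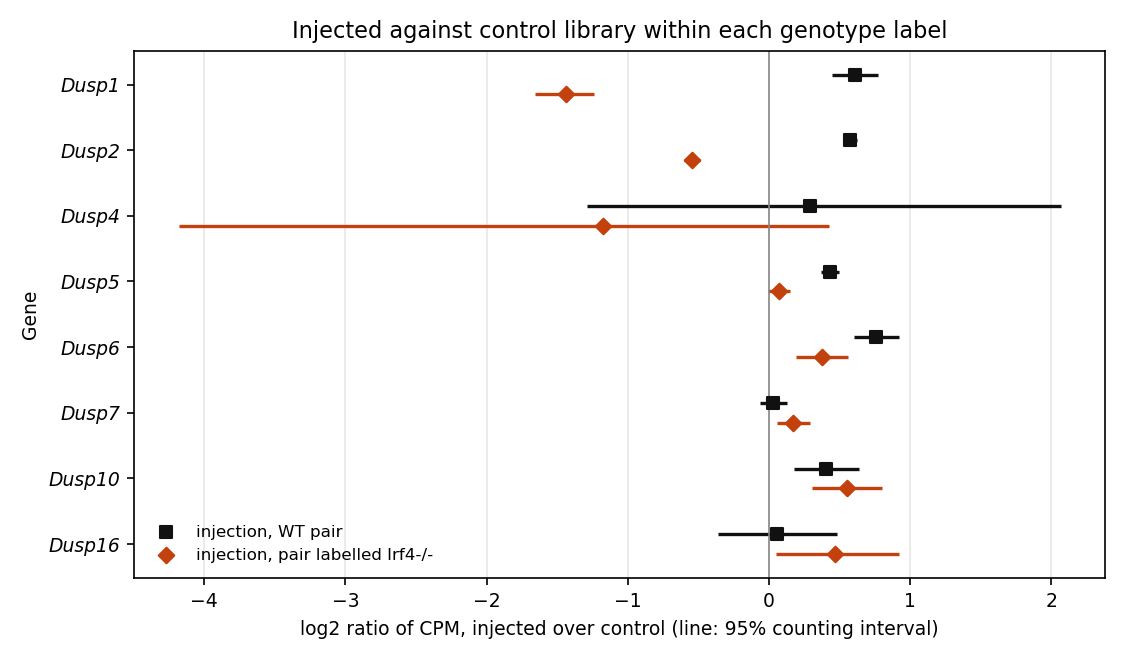
Log2 ratio of CPM, injected over control, for each phosphatase gene in WT (black squares) and in libraries labelled Irf4-/- (orange diamonds), with lines for the 95% counting interval. Dusp1 and Dusp2 lie right of 0 in WT and left of 0 under the Irf4-/- label, at 0.61 and -1.44 and at 0.58 and -0.55, while Dusp6 and Dusp10 lie right of 0 in both pairs.

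**Figure D4:**
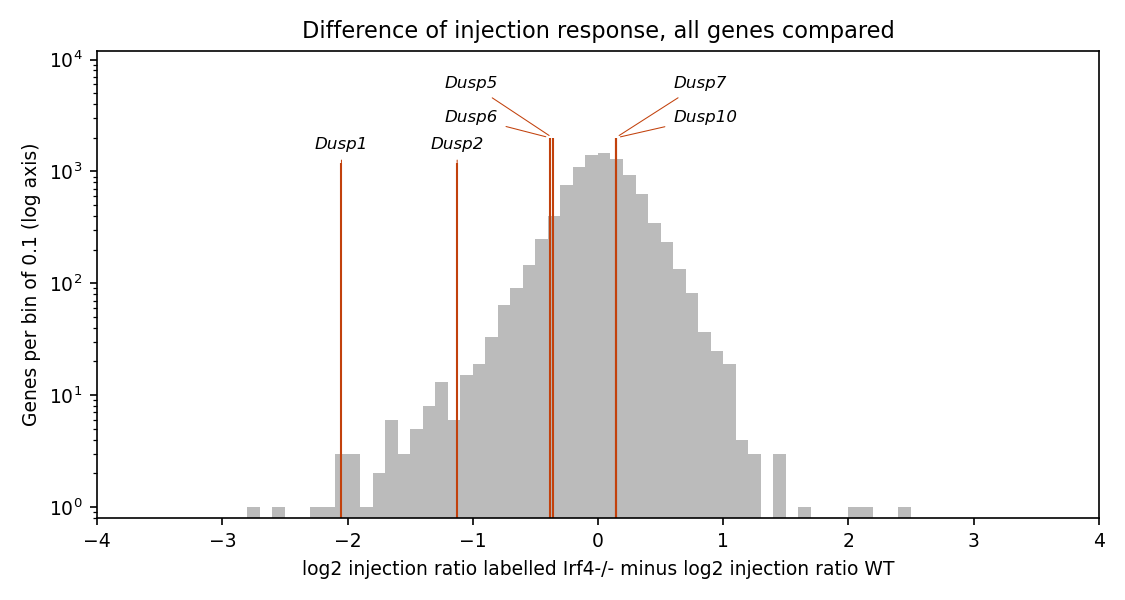
Distribution over 9523 genes of the log2 injection ratio under the Irf4-/- label minus that in WT, in bins of 0.1 with a log axis of gene numbers; vertical lines mark the 6 phosphatase genes measured in both pairs. Dusp1 at -2.05 and Dusp2 at -1.12 lie in the lower tail, below the 5th percentile of -0.47. The other 4 lie above that percentile, with Dusp6 at -0.38 and Dusp5 at -0.36 on its side of 0.

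Dusp5 (ENSMUSG00000034765, chromosome 19, 53529109 to 53542431, plus strand) encodes a nuclear phosphatase specific for ERK, and Dusp6 (ENSMUSG00000019960, chromosome 10, 99263231 to 99267489, plus strand) its cytoplasmic counterpart, a classic feedback target of ERK signalling. Their promoters, over the same stretch from 250 to 41 bases before the RefSeq start (chr19:53528895-53529104 and chr10:99262981-99263190, both plus strand), are shown because these ERK-specific members had the lowest unadjusted p for injection among the 3 inducible nuclear genes tested (Dusp5) and among all 7 tested (Dusp6).
Dusp5: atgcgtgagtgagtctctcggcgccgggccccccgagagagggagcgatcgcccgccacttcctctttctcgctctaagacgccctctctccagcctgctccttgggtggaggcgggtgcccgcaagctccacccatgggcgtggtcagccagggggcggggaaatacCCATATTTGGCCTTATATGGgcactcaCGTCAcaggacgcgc
Dusp6: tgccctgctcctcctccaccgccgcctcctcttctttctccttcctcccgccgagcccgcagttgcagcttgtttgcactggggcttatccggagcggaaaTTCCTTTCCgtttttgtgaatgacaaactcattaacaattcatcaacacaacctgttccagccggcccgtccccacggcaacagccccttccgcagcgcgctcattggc
In Dusp5 the capitals mark adjoining CArG boxes, the element bound by serum response factor, 82 to 73 and 72 to 63 bases before the start, and a TGACG core on the opposite strand 55 to 51 bases before it. A CArG box was held by 1.63% of the promoters. In Dusp6 they mark, on the opposite strand, GGAANNGAA, a core of composite sites for ETS factors with IRF4 or IRF8, 149 to 141 bases before the start, found in 8.24% of promoters. Dusp16 held a TGACG core 70 to 66 bases before its start. It also held a heat shock element core, GAANNTTC, 25 to 18 bases before the start, found in 7.86% of promoters. No member searched held an AP-1 site, TGANTCA, in the window, against 7.81% of promoters, or an interferon response core, GAAANNGAA, against 8.56%. Promoters were found for 7 of the 8 genes, and Dusp4 was not searched.

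Dusp5 had 179 and 241 CPM in control and injected WT mice and 160 and 168 CPM in the corresponding libraries labelled Irf4-/-. Both libraries labelled Irf4-/- lay below both WT libraries, an order that 17.7% of all genes tested showed and that Dusp7 shared, while 0 members showed the converse against 15.7%. The genotype ratio was -0.16 (-0.23 to -0.09) in control mice and -0.52 (-0.59 to -0.46) in injected mice. In the additive model the genotype change was -0.34 (SE 0.115, edgeR adjusted p 0.293) and the injection change 0.25 (SE 0.115, edgeR adjusted p 0.352). The injection ratio was 0.43 (0.37 to 0.50) in WT and 0.07 (-0.01 to 0.15) under the Irf4-/- label, where the interval includes 0. Their difference, which has no test, was -0.36 (-0.46 to -0.26) and ranked 789 from the lowest among the 9523 genes. An antisense transcript that the count table does not list overlaps the start of Dusp5 in the annotation. Without a stated strand setting, reads of any exon it shares with Dusp5 cannot be told apart.

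Dusp6 had 25.1 and 42.5 CPM in control and injected WT mice and 25.6 and 33.2 CPM in the corresponding libraries labelled Irf4-/-. Both injected libraries lay above both control libraries, as for Dusp10 and Dusp16, an order found in 21.1% of all genes tested, and 0 members showed the converse against 22.2%. The injection ratio was 0.76 (0.60 to 0.92) in WT and 0.37 (0.19 to 0.56) under the Irf4-/- label. Their difference, which has no test, was -0.38 (-0.62 to -0.14) and ranked 709 from the lowest among the 9523 genes. The additive injection change of 0.57 (SE 0.142, 1.49-fold) had an unadjusted p of 0.00209 and an edgeR adjusted p of 0.103, and so did not pass. With counts scaled to the total alone the adjusted p was 0.0465, and with no filter on low counts it was 0.00535. The genotype change was -0.16 (SE 0.141, edgeR adjusted p 0.810). The summed monocyte and macrophage markers, given above, were also highest in WT injected and lowest in WT control. Of the 9 tested 2, Vcam1 and C1qc, rose with injection, against 0.333% of all genes, and 1, Lyz2, fell, against 0.392%. The part of these markers in the Dusp6 values was not tested.

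Dusp7 (ENSMUSG00000053716, chromosome 9, 106368632 to 106375724, plus strand), the other cytoplasmic ERK phosphatase, varied least, with 85.1 and 87.0 CPM in control and injected WT mice and 67.3 and 75.9 CPM in the corresponding libraries labelled Irf4-/-. Its highest library was 1.29 times its lowest. The genotype ratio was -0.34 (-0.45 to -0.23) in control mice and -0.20 (-0.30 to -0.09) in injected mice, the additive genotype change being -0.26 (SE 0.0953, edgeR adjusted p 0.338). On injection the change was 0.10 (SE 0.0953, edgeR adjusted p 0.673).

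Dusp10 (ENSMUSG00000039384, chromosome 1, 184013302 to 184075636, plus strand), a phosphatase of JNK and p38, had 13.9 and 18.4 CPM in control and injected WT mice and 13.4 and 19.7 CPM in the corresponding libraries labelled Irf4-/-. The injected libraries were the higher ones under either label, with ratios of 0.40 (0.18 to 0.64) in WT and 0.55 (0.31 to 0.80) under the Irf4-/- label. The additive injection change was 0.48 (SE 0.161, edgeR adjusted p 0.214) and the genotype change 0.03 (SE 0.161, edgeR adjusted p 0.980). The span of Dusp10 holds 1700056E22Rik, a gene on the opposite strand with 31 to 73 counts. Reads of any exon that they share cannot be told apart without a stated strand setting. Dusp16 (ENSMUSG00000030203, chromosome 6, 134715468 to 134792625, minus strand), whose product also acts on JNK and p38, had 4.85 and 5.06 CPM in control and injected WT mice and 4.62 and 6.44 CPM in the corresponding libraries labelled Irf4-/-. Its injection ratio was 0.06 (-0.36 to 0.48) in WT and 0.47 (0.05 to 0.92) under the Irf4-/- label, from 74 to 120 counts per library. An antisense transcript, Gm36328, lies inside the span of Dusp16, and reads of any shared exon likewise cannot be told apart. The genotype change of 0.15 (SE 0.259) and the injection change of 0.27 (SE 0.259) had edgeR adjusted p of 0.925 and 0.683. At this depth the 2 labels' responses in Dusp10 and Dusp16 could not be separated, with differences of 0.15 (-0.18 to 0.48) and 0.41 (-0.17 to 0.99).

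The kinases that these phosphatases act on, and those above and below them, passed in no case. By edgeR's quasi-likelihood test 0 of 8 MAP kinase genes tested and 0 of 7 MAP kinase kinases were called in either effect. Of the kinases above them it was 0 of 12, and of the kinases downstream 0 of 9. Over all genes tested 1.22% rose and 0.258% fell with the genotype label, and 0.333% rose and 0.392% fell with injection. In lists this short 0 calls lie near those shares and are not a result about the kinases. Mapk8, which encodes a JNK enzyme, had 28.7 and 29.1 CPM in control and injected WT mice and 26.1 and 24.1 CPM in the corresponding libraries labelled Irf4-/-. The largest injection change among the kinases that activate MAP kinase kinases was that of Map3k8, which encodes an activator of the ERK pathway, at 0.37 (SE 0.114, edgeR adjusted p 0.183). Of 6 other MAP kinase phosphatases 2 were tested and 0 called, which is also near the shares over all genes. Ptpn5, a tyrosine phosphatase of ERK and p38, had 3.90 and 4.52 CPM in control and injected WT mice and 5.87 and 9.56 CPM in the corresponding libraries labelled Irf4-/-. Its genotype change was 0.85 (SE 0.252), with an unadjusted p of 0.00655 and an edgeR adjusted p of 0.195, and its genotype ratio in injected mice was 1.06 (0.70 to 1.47). Ptpn7, a related phosphatase of lymphocytes, had 228 to 286 CPM and a genotype change of 0.02 (SE 0.106, edgeR adjusted p 0.990).

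Feedback inhibitors of the Sprouty and SPRED families, which act on the same ERK pathway as Dusp6, gave 0 calls among 5 tested. That count lies near the shares over all genes, 1.22% higher and 0.258% lower with genotype and 0.333% and 0.392% with injection. Spry4, chosen after its values were seen, had 2.76 and 7.43 CPM in control and injected WT mice and 2.19 and 5.10 CPM in the corresponding libraries labelled Irf4-/-, and an injection change of 1.33 (SE 0.284, edgeR adjusted p 0.0668). Spred1, the member of that list with the largest change among those with a mean of at least 5 CPM, had 17.9 to 22.1 CPM. Of 19 immediate early genes tested 0 were called with injection, against 0.333% of all genes higher and 0.392% lower. With the genotype label 0 rose, against 1.22%, and 1 fell, against 0.258%. That gene was Nr4a1, a nuclear receptor induced by antigen receptor signalling, which fell by 0.77 (SE 0.123, edgeR adjusted p 0.0104). Fosb, a subunit of AP-1, had 9.80 and 7.75 CPM in control and injected WT mice and 19.2 and 3.87 CPM in the corresponding libraries labelled Irf4-/-. In Fosb as in Dusp1 the library labelled Irf4-/- injected was the lowest, and Fos was lowest there too at 22.0 CPM against 25.1 to 40.3. Egr1, in contrast, was highest there at 29.9 CPM against 16.6 to 27.7. Summed immediate early genes ranged from 2032 CPM in the library labelled Irf4-/- injected to 2190 in WT control. Of 10 heat shock genes, which respond to cell handling as well as to protein stress, 8 fell with injection, against 0.392% of all genes tested. With the genotype label 1 of the 10 fell, against 0.258%, and 0 rose. That gene was Hspa1b, at -1.72 (SE 0.287, edgeR adjusted p 0.0139). It had 99.2 and 0.969 CPM in control and injected WT mice and 24.2 and 1.02 CPM in the corresponding libraries labelled Irf4-/-. Its genotype ratio was -2.03 (-2.19 to -1.88) in control mice and 0.07 (-0.93 to 1.09) in injected mice, where the interval includes 0. The summed level of the 10 was 5564 and 2453 CPM in control and injected WT mice and 4570 and 2914 CPM in the corresponding libraries labelled Irf4-/-. Dusp1 and Dusp2 were higher in WT injected than in WT control and lowest in the library labelled Irf4-/- injected, while the heat shock sums were low in both injected libraries, and the part of the heat shock difference in the Dusp values was not tested.

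Small atypical DUSPs lack the kinase-binding domain of the MAP kinase phosphatases. Of 9 tested 1 rose with the genotype label, against 1.22% of all genes tested, and 0 fell, against 0.258%. With injection 0 passed, where 0.333% of all genes rose and 0.392% fell. Dusp18 rose by 1.37 (SE 0.248, edgeR adjusted p 0.0215), with 4.42 and 3.23 CPM in WT control and injected and 9.37 and 10.2 CPM in the libraries labelled Irf4-/-. It lies on chromosome 11 between 3895240 and 3901296. Dusp22, which lies on chromosome 13 between 30659999 and 30711231 beside Irf4 (30749226 to 30766976), had a genotype change of 0.01 (SE 0.157, edgeR adjusted p 0.996) and an injection change of 0.52 (SE 0.157, edgeR adjusted p 0.172). Its levels were 14.1 and 14.4 CPM in the control libraries and 20.6 and 20.1 in the injected ones.

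Likeness to other genes was described for the members whose log2 CPM ranged over at least 1, as the Euclidean distance between centred log2 profiles over the 4 libraries, among 9324 protein-coding genes with at least 5 CPM. The nearest to Dusp1 were Slc22a15, a solute carrier gene, at 0.562, Ager, which encodes a receptor for glycated proteins, at 0.570, and Zfp36l2, which encodes an RNA-binding protein that promotes mRNA decay, at 0.574. Zfp36l2 had 1624 and 2754 CPM in control and injected WT mice and 1674 and 978 CPM in the corresponding libraries labelled Irf4-/-. Dusp4, with at most 8 counts per library, was the other, and its nearest were Slc22a15, Dusp1 and Mx1, at distances of 0.292, 0.327 and 0.393. Over 4 libraries such distances are a description.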

How the data were processed

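RNA was sequenced in 4 libraries of sorted splenic NK cells. TopHat, edgeR and the build mm10 are named per the submitters' processing notes. Versions, counting tool, annotation and strand setting are not stated there. For every gene the authors deposited raw read counts as whole numbers and FPKM values, which equal count over library total and gene length, the lengths implied being whole numbers (tolerance 0.01 bp) in 72455 of 72455 nonzero values. Of 35275 identifiers 34490 matched a GENCODE M21 symbol (GRCm38); rows without one held 0.0871% to 0.0887% of counts.

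Scaling used the trimmed mean of M values (TMM) of edgeR 4.0.16 on R 4.3.3. The test was edgeR's quasi-likelihood test (glmQLFit, glmQLFTest, two-sided) with genotype and injection as additive terms, run on the 11998 genes that reached 1 CPM in 2 or more libraries, and adjusted over all of them by Benjamini-Hochberg. Residual degrees of freedom were 1, prior degrees of freedom 9.62, and the common dispersion 0.00996. The labels do not say that libraries came from separate animals, so the spread behind the p-values may be technical. Standard errors are the size of the change over the square root of F. Pairwise log2 ratios used a prior count of 2 and exact (Clopper-Pearson) 95% counting intervals; a count of 0 allows up to 0.143 to 0.187 CPM (3 counts). The interval of a difference of responses is a normal approximation from the 4 counts.

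All 8 members are named. Of each other list at most 4 genes are named, calls first and then by size of change; Spry4 and markers at 0 are named besides. The members, lists, motifs and rules were chosen with earlier results of these data known. Promoter windows (250 bases before to 50 after the start) are from RefSeq on GRCm38.p6 and protein sequences were not used here. Alternatives were median-of-ratios and total scaling, other filters, folds and a prior count of 0.5, deposited FPKM plus 0.1, DESeq2 1.42.0, limma-voom in limma 3.58.1, and 1 term left out. The scripts were tested on simulated data.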

Additional observations from a re-analysis of the deposited data

Results flagged for a closer look

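Dusp1 and Dusp2 had injection ratios of opposite sign under the 2 genotype labels. The log2 injection ratio under the Irf4-/- label minus that in WT was -2.05 for Dusp1 and -1.12 for Dusp2, with counting intervals of the separate ratios that exclude 0 on opposite sides. Each ratio rests on 1 library against 1, and the difference was not tested.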

How the results depend on the processing

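Each comparison rests on 1 library per group, the additive test on 1 residual degree of freedom, and Dusp4 on at most 8 counts per library. No paired analysis was possible because each group has 1 library and the labels give no replicate numbers. Over 7 other settings the members' additive changes kept direction and side of the threshold in 94 of 98 values. The exceptions were Dusp2 for injection, at -0.00835 by limma-voom, Dusp2 for genotype, called at -0.39 with no filter on low counts, and Dusp6 for injection, called at 0.56 with total scaling and at 0.57 with no filter. The members called were therefore 1 for genotype with no filter, and 1 for injection with total scaling or with no filter. The cause was not tested, except that fewer or more genes enter under another filter. All pairwise ratios and differences of response of the members stayed within their counting intervals under every scaling, prior count and the deposited FPKM.

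Over all genes, 146 rose and 31 fell with genotype; 53 fell with total scaling, 319 rose and 163 fell with no filter, 15 fell by the DESeq2 Wald test, and 3 rose and 2 fell with injection left out as a term. With injection 40 rose and 47 fell; the counts were 120 and 147 with total scaling, 305 and 299 with no filter, 75 and 86 with a 5 CPM filter, and 0 and 0 with genotype left out as a term. The pairwise rule called 77 genes for genotype in control mice, 174 in injected mice, 182 for injection in WT and 34 under the Irf4-/- label; a 1.5-fold rule gave 244, 683, 811 and 258, and a 1 CPM minimum 218, 447, 542 and 196. With the 1.5-fold rule the members called were 1 for genotype in control mice, 2 in injected mice and 2 for injection in WT.

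Leaving out each library in turn, with the other term also left out, was added after seeing the data; an arm of 1 library then has no spread of its own. Genotype then gave 0 to 526 genes higher (6 without Irf4-/- control) and 0 to 478 lower, injection 0 to 361 higher (6 without WT injected) and 0 to 337 lower, and 0 to 3 members were called in either effect, the 3 where WT injected was the lone library of its arm. Signs turned as follows, the ranges being over the 4 libraries left out. For genotype Dusp1 ranged from -1.17 to 0.29 (0.0709 without WT injected), Dusp6 from -0.53 to 0.24, Dusp10 from -0.25 to 0.29 (-0.146 without WT control) and Dusp16 from -0.0874 to 0.38. For injection Dusp1 ranged from -1.17 to 0.28 (0.0755 without Irf4-/- control), Dusp2 from -0.47 to 0.49 (-0.00154 without WT control), Dusp5 from -0.0131 to 0.51 and Dusp7 from -0.0504 to 0.27 (-0.00869 without WT injected).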
